A study of Mus musculus with 12 samples.

Results

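The sites described here are the CCCGGG sites of mouse chromosome 14 (build mm9) that had 50 or more reads, methylated and unmethylated together, in 11 of the 12 adenomas studied. They numbered 709 of the 7109 sites listed on the chromosome, and of 173449 sites listed in all. The same depth rule kept 19196 of 157787 sites on the other 18 autosomes. The 12th adenoma was left out of the depth rule because it was sequenced much less deeply. Chromosome 14 was chosen with earlier results of these data known, so its rank among the chromosomes is given as a description with no test. The same holds for the run of 4 sites from 109.3112 to 109.3121 Mb, and for the site at 75.8561 Mb, both of which were singled out for their high levels in Tet1-/- adenomas.

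All adenomas were colonic, came from C57BL/6J mice and carried ApcMin/+, and the mice were 150 to 160 days old. There were 3 adenomas of each of 4 genotypes. The Tet1-/- Tdg+/+ ApcMin/+ adenomas are called Tet1 null, and the Tet1+/- TdgN151A/+ ApcMin/+ adenomas double heterozygous. The Tet1+/+ TdgN151A/+ ApcMin/+ adenomas are called Tdg heterozygous, and the Tet1+/+ Tdg+/+ ApcMin/+ adenomas control. The genotypes were taken from the labels, and the absence of Tet1 was not checked in these DNA libraries. Whether adenomas of a genotype came from different mice is not stated in the labels, so the p-values measure only the spread between these adenomas, which may be in part technical. In bulk adenomas a change in the share of cells of a type and a change within the cells cannot be told apart.

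Tet1 belongs to the dioxygenases that add oxygen to methylated cytosine, and the glycosylase Tdg cuts out bases oxidised in this way, so that repair can put back plain cytosine. Apc is the tumour suppressor of the Wnt pathway, whose loss of function starts intestinal adenomas in Min mice. Many CpG-rich stretches are unmethylated in normal tissue, and gains of methylation there are a known feature of intestinal tumours.

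Methylation was measured by digital restriction enzyme analysis of methylation. SmaI cuts CCCGGG where it is unmethylated, XmaI then cuts the sites left because they are methylated, and the ends of the reads tell the states apart. The level of a site is the percentage of methylated reads, adjusted by the authors with spiked standards. Total reads were 2349576 to 18865833 per adenoma. On chromosome 14 the median depth of the 709 sites was 338 to 742 reads in 11 adenomas and 86 reads in double heterozygous adenoma 3, where 222 of the sites had fewer than 50 reads. Double heterozygous means and tests therefore rest on adenomas 1 and 2 (n = 2), and the value of adenoma 3 closes each list of single adenomas of that genotype. Reads from the Y chromosome showed Tet1 null 1 and 2, all 3 double heterozygous, Tdg heterozygous 2 and control 1 to be from males, and the other 5 adenomas to be from females.

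The 709 sites ran from position 8641154 to 125134854 and lay in 339 runs, a run being sites no more than 500 bp from the next. Of these runs, 73 held a single site, 203 a pair and 63 at least 3 sites, up to 8. Neighbours in a run often share the DNA fragment between them: of 370 neighbouring pairs, 226 had depths within 10% of each other. Neighbouring sites are therefore not independent measurements. Mean levels differed between sites just inside and just outside the depth minimum, but each side held few sites and the difference was not tested. The 18 sites whose shallowest adenoma had 50 to 54 reads averaged 30.6% in Tet1 null, 30.6% in double heterozygous, 30.0% in Tdg heterozygous and 29.1% in control adenomas. The 17 sites just outside, at 45 to 49 reads, averaged 42.6%, 44%, 42.4% and 40% in the same 4 genotypes.

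Most of the 709 sites that met the depth rule were unmethylated or nearly so, which does not describe the other sites listed on the chromosome. In control adenomas 441 of the 709 sites (62.2%) had a mean level below 5%, 56 sites (7.9%) had 5 to 20%, 127 sites (17.9%) had 20 to 80%, and 85 sites (12%) were above 80%. On the other autosomes these shares were 60.0%, 7.29%, 19.4% and 13.4%. No methylated read was found at 121 of the 709 sites in the 11 adenomas, and the remaining 588 sites were tested.

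Averaged over all 709 sites, the level was 22.6, 24.7 and 23.7% in the Tet1 null adenomas. It was 23.6, 22.2 and 22.5% in the double heterozygous, 22, 22.2 and 22.7% in the Tdg heterozygous, and 22, 21.4 and 21.8% in the control adenomas. The lowest Tet1 null adenoma was above the highest control adenoma, while it overlapped the other 2 mutant genotypes. The genotype means on chromosome 14 were 23.7 ± 1.05% in Tet1 null (SD, n = 3), 22.9 ± 1.02% in double heterozygous (n = 2), 22.3 ± 0.356% in Tdg heterozygous (n = 3) and 21.7 ± 0.342% in control adenomas (n = 3). On the other autosomes they were 25.5 ± 1.54%, 25.2 ± 1.43%, 24.3 ± 0.492% and 23.6 ± 0.273% in the same order. Chromosome 14 was thus lower than the rest in all 12 adenomas, with differences of -1.26 points in Tet1 null 1 to -2.58 points in double heterozygous 1.

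The Tet1 null mean exceeded the control mean by 1.94 points on chromosome 14 and by 1.92 points on the other autosomes, so at the level of the whole chromosome the difference was of the same size. The double heterozygous mean was 1.15 points above control on chromosome 14 and 1.59 points on the others, and the Tdg heterozygous mean 0.545 and 0.693 points. With reads summed over sites in place of a mean over sites, the Tdg heterozygous difference on chromosome 14 was -0.0205 points.

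Adenoma by adenoma, the genotypes overlapped least at sites below 5% in control, where the differences in points were small. The Tet1 null mean exceeded control by 0.697 points there, by 7.31 points at 5 to 20% and by 5.24 points at 20 to 80%. At the 441 sites below 5% in control, the mean level was 1.08, 1.09 and 0.916% in the Tet1 null adenomas. It was 0.457, 0.417 and 0.408% in the double heterozygous, 0.459, 0.439 and 0.357% in the Tdg heterozygous, and 0.340, 0.343 and 0.312% in the control adenomas. All 3 Tet1 null adenomas lay above the 9 others, and all double heterozygous and Tdg heterozygous adenomas lay above all control adenomas. On the other autosomes the same class averaged 0.771 ± 0.114% in Tet1 null and 0.366 ± 0.0218% in control adenomas (SD, n = 3 each). Without the 3 sites of this class that belong to the run at 109.3112 Mb, the remaining 438 sites of chromosome 14 averaged 0.771 ± 0.162% in Tet1 null and 0.311 ± 0.0168% in control adenomas. Since control levels define these classes, a low control level is in part built in at the sites below 5%. The classes are used here to describe where levels lay and not as a test.

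**Figure D1:**
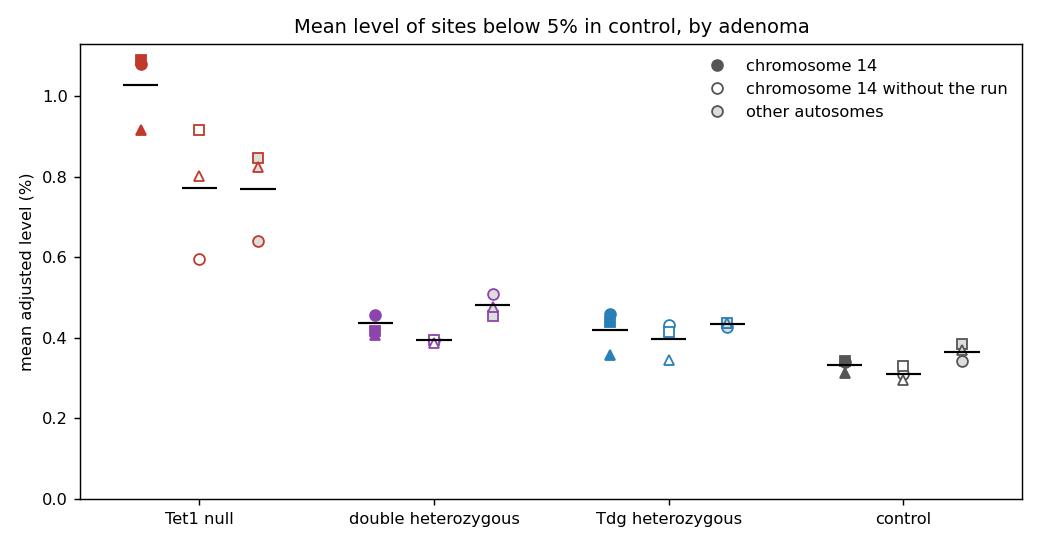
Mean adjusted methylation level (%) of the sites below 5% in control, one point per adenoma (circle, square and triangle for adenomas 1, 2 and 3) and a line at the genotype mean, with double heterozygous 3 left out of its mean. Filled points are the 441 chromosome 14 sites, open points the 438 sites without the run and grey points the other autosomes. The Tet1 null points lie between 0.595 and 1.09%, above all other adenomas in each of the 3 sets.

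At the 56 sites of 5 to 20%, the mean was 18.6 ± 1.62% in Tet1 null (n = 3), 14.2 ± 6.04% in double heterozygous (n = 2), 12.4 ± 2.04% in Tdg heterozygous (n = 3) and 11.3 ± 0.422% in control adenomas (n = 3). The double heterozygous adenomas were far apart here, at 18.5, 9.9 and 11.4%. At the 127 sites of 20 to 80% the means were 59.5 ± 4.06%, 58.9 ± 2.07%, 56.6 ± 1.37% and 54.2 ± 1.1% in the same order of genotypes. Above 80% the 85 sites gave 91.1, 91.4, 90.9 and 91.2%, and no genotype stood apart.

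Site by site, Tet1 null adenomas had 16 sites with a higher level than control adenomas and 0 with a lower one among the 588 tested, with edgeR's quasi-likelihood test and an adjusted p under 0.05. That is 2.72% of the sites, where 1.59% of all 17364 autosomal sites tested were higher and 0.0115% lower. At an unadjusted p under 0.05, 64 of the 588 sites (10.9%) differed, 59 of them higher, against 8.67% of all sites. Every Tet1 null value lay above every control value at 70 sites (11.9% of the 588, against 10.9% of all sites) and below at 12 sites (2.04%, against 1.16%). The count of 16 fell to 8 without control 2 and to 8 without control 3, and 5 of the 16 sites stayed past the threshold whichever adenoma was left out.

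**Figure D2:**
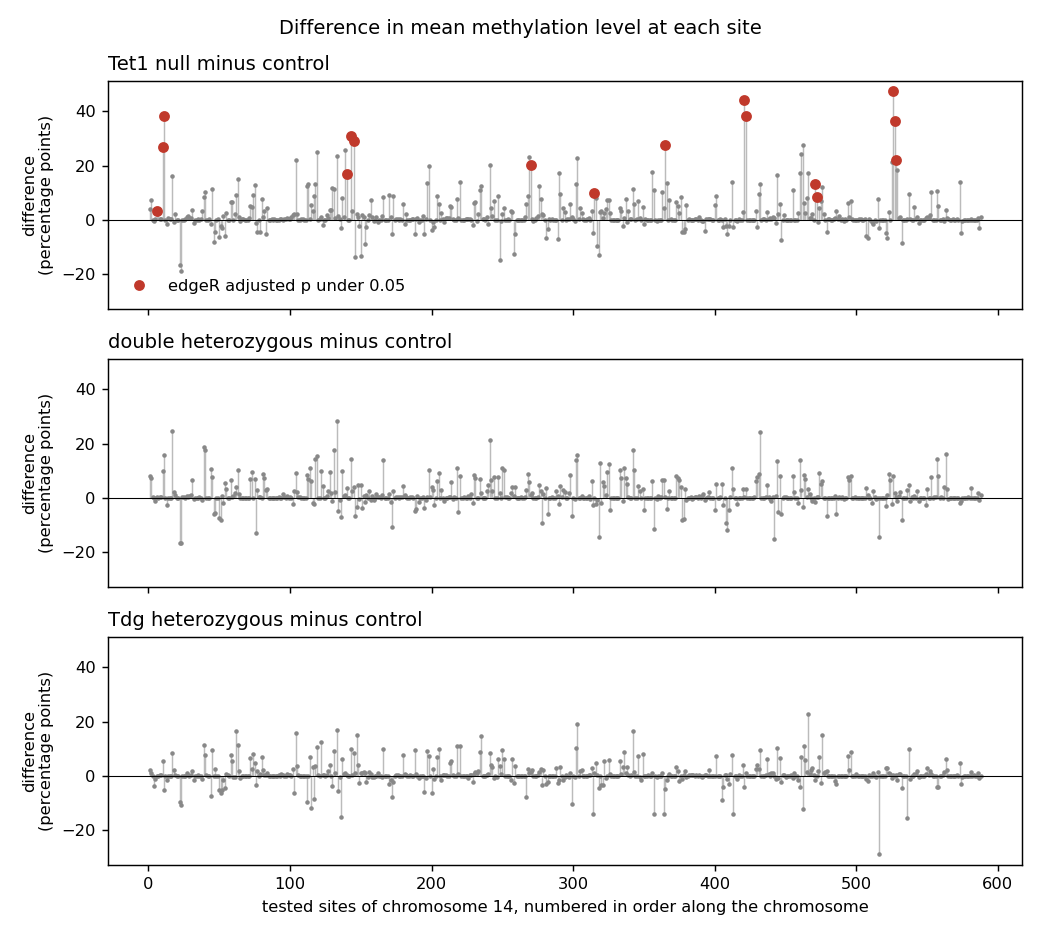
Difference in mean adjusted level (percentage points) at each of the 588 tested sites, numbered in order along the chromosome, for Tet1 null (top), double heterozygous (middle) and Tdg heterozygous (bottom) adenomas minus control adenomas. Red points mark the 16 sites past an edgeR adjusted p of 0.05, all of them higher in Tet1 null and 3.05 to 47.4 points above control.

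By share of tested sites higher in Tet1 null than in control, chromosome 14 ranked second of the 19 autosomes behind chromosome 6 (2.80%). Counted by run, which weighs neighbours once, 11 of its 309 tested runs (3.56%) held such a site, against 207 of 8632 (2.40%) on the other autosomes, and chromosomes 6 (3.94%), 15 (3.78%) and 7 (3.68%) were above it. The 16 sites include the 4 singled out for their high Tet1 null levels, and 12 remain without them. The place of chromosome 14 therefore rests in part on chosen sites. The order also depended on the method. With limma on log2 count ratios the shares were 1.02% on chromosome 14, 6 sites, and 1.13% on the other autosomes, and 4 of those 6 sites were among the 16, namely the first site of the run, 60705513, 75856491 and 87968497. With all 12 adenomas and 100 reads in each, the shares were 5.47 and 2.53%.

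**Figure D3:**
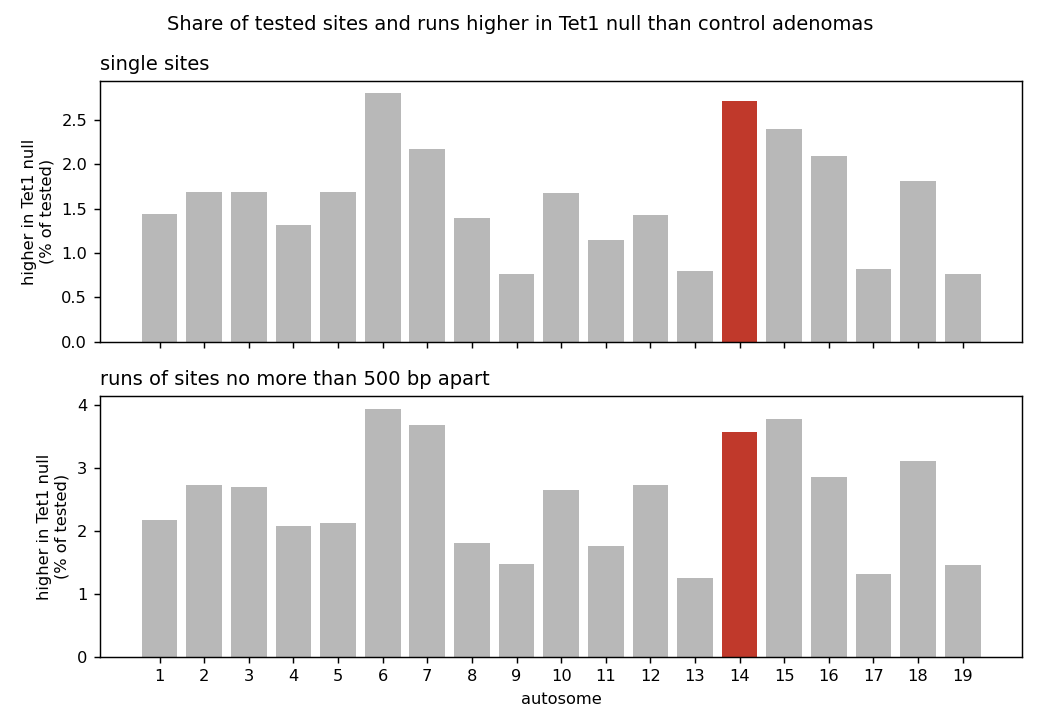
Share of tested sites (top) and of runs holding at least 1 such site (bottom) with a higher level in Tet1 null than in control adenomas (edgeR adjusted p under 0.05), in percent, for each of the 19 autosomes. Chromosome 14 (red) stands at 2.72% of sites and 3.56% of runs.

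The sizes of the differences at called sites are given as a description, with no test, since 4 of the 16 sites (3 of the run and the one at 75.8561 Mb) were singled out for their high Tet1 null levels. The median difference between Tet1 null and control means was 27.3 points over the 16 sites, with a median level of 39.2% in Tet1 null and 4.75% in control adenomas. Over the 260 higher sites of the other autosomes the median difference was 12.6 points, with 15.8% and 2.27%. Without the 4 sites singled out, the remaining 12 sites of chromosome 14 had a median difference of 23.5 points, a median of 30.0% in Tet1 null and one of 5.33% in control adenomas. Of the 16 sites, 9 were below 5% in control (of 320 tested in that class), 5 were at 5 to 20% (of 56), 2 at 20 to 80% (of 127) and none above 80% (of 85). All control values lay under all Tet1 null values at 15 of the 16 sites. At 11 of them all Tet1 null values were also above the 6 values of the other 2 mutant genotypes. Tet1 null 1 had the highest level at 9 of the 16 sites, Tet1 null 2 at 4 and Tet1 null 3 at 3, so that no single adenoma led everywhere. At the 16 sites the 95% Wilson interval of a single value was at most 16.3 points wide in the 11 adenomas (median 4.0 points), and it covers counting error only.

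**Figure D4:**
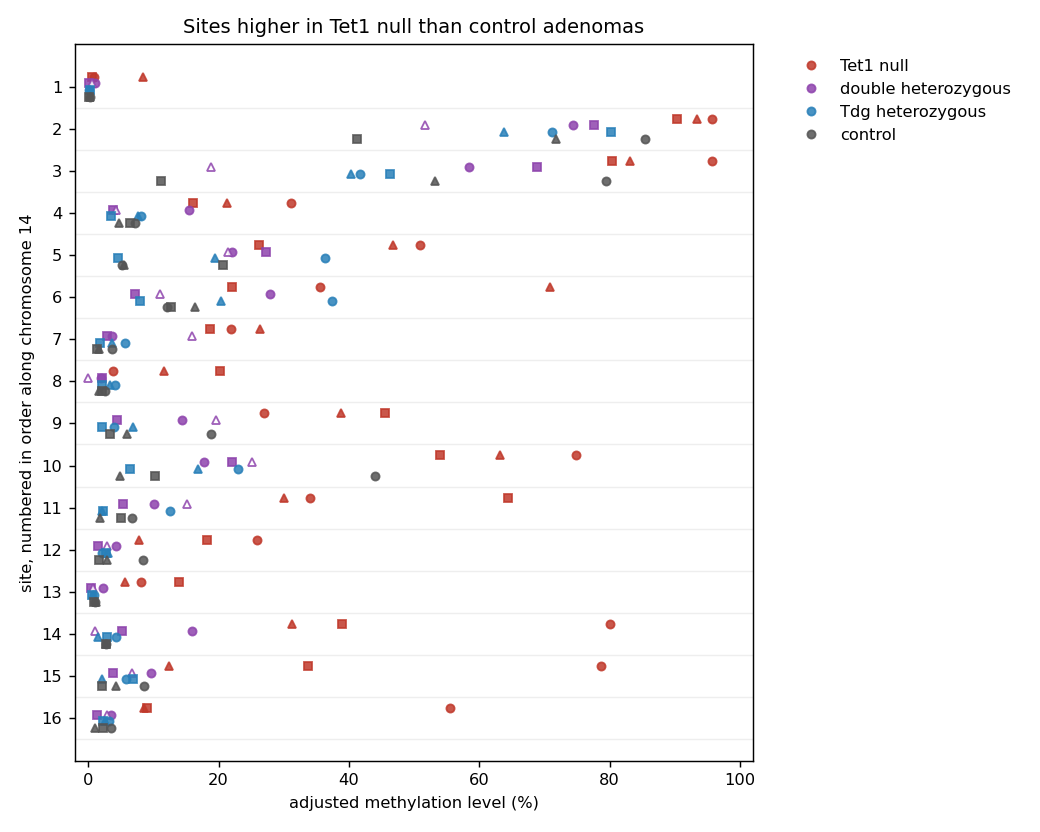
Adjusted methylation level (%) in each adenoma at the 16 sites higher in Tet1 null than in control adenomas, in order along the chromosome from position 12385200 (1) to 109311560 (16), with circle, square and triangle for adenomas 1, 2 and 3 and open triangles for the shallow double heterozygous 3. The Tet1 null points are to the right of all control points at all sites but number 12.

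The run from 109.3112 to 109.3121 Mb spans 878 bp and holds 4 sites, all of which were members. At its first site the level was 80, 39 and 31.3% in the Tet1 null adenomas, 15.9, 5.27 and 1.01% in the double heterozygous, 4.27, 2.96 and 1.44% in the Tdg heterozygous, and 2.72, 2.69 and 2.73% in the control adenomas. All Tet1 null values were above all others, and double heterozygous 1 was the next highest. At 109311469, 292 bp further along, it was 78.7, 33.7 and 12.4% in Tet1 null, 9.64, 3.87 and 6.67% in double heterozygous, 5.85, 6.89 and 2.14% in Tdg heterozygous, and 8.59, 2.07 and 4.21% in control adenomas. At 109311560 it was 55.5, 9.0 and 8.64% in Tet1 null, 3.48, 1.42 and 2.88% in double heterozygous, 3.16, 2.34 and 2.51% in Tdg heterozygous, and 3.57, 2.34 and 0.98% in control adenomas. At both of these sites the Tet1 null values again lay above the other 9. The last site of the run had 63.8, 15.6 and 3.51% in Tet1 null, 12.1, 3.72 and 5.8% in double heterozygous, 10.7, 6.34 and 6.26% in Tdg heterozygous, and 21.9, 3.95 and 2.06% in control adenomas, and the genotypes overlapped there.

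Averaged over the run, Tet1 null adenomas had 69.5, 24.3 and 14%, double heterozygous 10.3, 3.57 and 4.09%, Tdg heterozygous 6.0, 4.63 and 3.09%, and control adenomas 9.18, 2.76 and 2.5%. The lowest Tet1 null adenoma was above every other adenoma. The Tet1 null mean of 35.9 ± 29.5% (SD, n = 3) rested to a large extent on adenoma 1. Without it the mean was 19.1%, and the difference from control was 14.3 points in place of 31.1 points. Summed over the 4 sites, 586 to 4127 reads per adenoma stand behind these means.

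Outside the run the Tet1 null adenomas differed from each other. The member before the run, 109310630, 547 bp from its first site, had 68.2, 5.52 and 5.68% in Tet1 null, 5.45, 0.51 and 7.84% in double heterozygous, 8.59, 3.75 and 1.19% in Tdg heterozygous, and 5.72, 5.86 and 4.11% in control adenomas. Tet1 null 1 was high there too, while Tet1 null 2 and 3 were within the range of the other genotypes. The next tested member after the run was 2762054 bp away, so the right edge could not be placed from these sites.

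**Figure D5:**
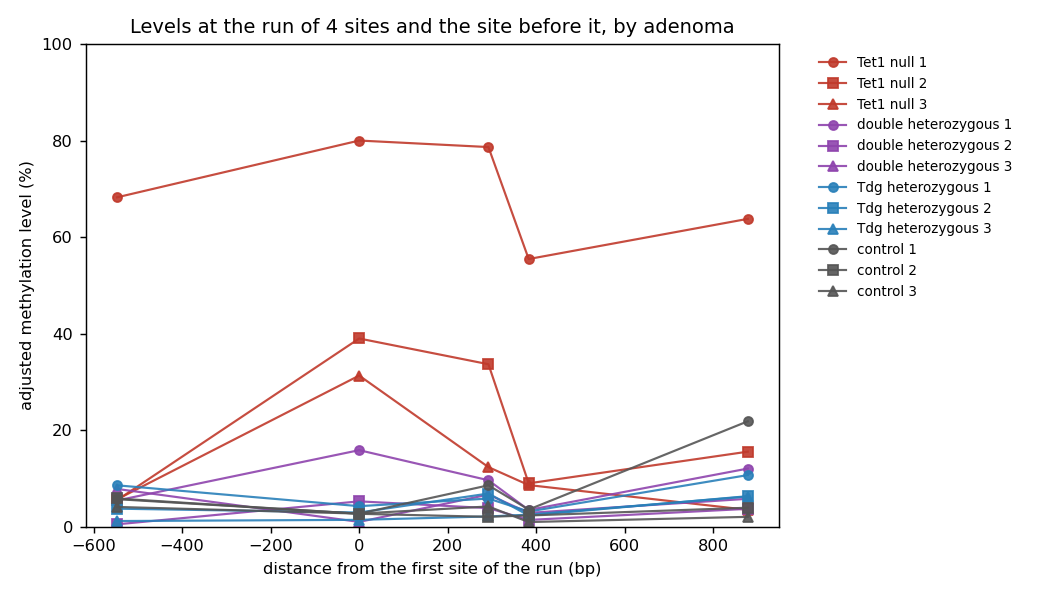
Adjusted methylation level (%) in each of the 12 adenomas at the 4 sites of the run and the member 547 bp before it, by distance from the first site of the run in bp; each line is 1 adenoma. Tet1 null 1 (red circles) stays between 55.5 and 80% throughout, while Tet1 null 2 and 3 are highest at the first site of the run, with 39 and 31.3%.

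A pair of sites 383 bp apart, at 75.8561 Mb and at position 75856491, was high in all 3 Tet1 null adenomas. At the site at 75.8561 Mb the level was 74.8, 54 and 63.3% in Tet1 null, 17.8, 22.1 and 25.2% in double heterozygous, 23, 6.46 and 16.9% in Tdg heterozygous, and 44.1, 10.2 and 4.89% in control adenomas. The Tet1 null values were above the other 9, and control 1 was the highest of those. At 75856491 it was 34.1, 64.5 and 30.1% in Tet1 null, 10, 5.28 and 15.2% in double heterozygous, 12.6, 2.32 and 2.16% in Tdg heterozygous, and 6.72, 5.04 and 1.85% in control adenomas. The Tet1 null mean at 75856491 was 38.3 points above control (edgeR adjusted p = 4.38e-07), and the call held whichever adenoma was left out. Its depth was close to that of the site singled out, with 676 and 679 reads in Tet1 null 1. The sites of this pair are therefore not independent measurements, and this p-value is not separate from the choice of its neighbour.

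A second pair, 318 bp apart, was already partly methylated in control adenomas. At 14765813 the level was 95.7, 90.4 and 93.5% in Tet1 null, 74.3, 77.6 and 51.7% in double heterozygous, 71.2, 80.2 and 63.8% in Tdg heterozygous, and 85.5, 41.3 and 71.8% in control adenomas. At 14766131 it was 95.6, 80.3 and 83.2% in Tet1 null, 58.5, 68.8 and 18.9% in double heterozygous, 41.7, 46.4 and 40.3% in Tdg heterozygous, and 79.5, 11.2 and 53.2% in control adenomas. The Tet1 null adenomas were the 3 highest of the 12 at both sites, while the control adenomas spread widely, with control 2 lowest. The differences from control were 27 points (edgeR adjusted p = 0.00465) and 38.4 points (edgeR adjusted p = 0.00148). Without control 2 the edgeR adjusted p was 0.318 at 14765813 and 0.385 at 14766131, and it was 0.053 without Tet1 null 3 at the first site and 0.0579 without Tet1 null 1 at the second.

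The pair at 87968099 and 87968497, 398 bp apart, had lower levels. At 87968099 the level was 25.9, 18.3 and 7.75% in Tet1 null, 4.26, 1.49 and 2.92% in double heterozygous, 2.12, 2.69 and 2.97% in Tdg heterozygous, and 8.39, 1.74 and 2.95% in control adenomas. Control 1 was above Tet1 null 3 there, which made it the site of the 16 where these genotypes overlapped. At 87968497 it was 8.14, 14 and 5.64% in Tet1 null, 2.26, 0.46 and 0.72% in double heterozygous, 0.88, 0.59 and 0.81% in Tdg heterozygous, and 0.99, 0.94 and 1.21% in control adenomas, with all Tet1 null values above the rest. The differences from control were 13 points (edgeR adjusted p = 0.0272) and 8.22 points (edgeR adjusted p = 0.000797). The first was lost without control 2 (0.399), control 3 (0.241), Tet1 null 1 (0.202) or Tet1 null 2 (0.168), and the second held without any single adenoma.

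The remaining 7 sites were the only ones called in their runs. At 60705513 the level was 21.9, 18.7 and 26.3% in Tet1 null, 3.64, 2.94 and 15.9% in double heterozygous, 5.65, 1.76 and 3.68% in Tdg heterozygous, and 3.67, 1.43 and 1.60% in control adenomas. The Tet1 null adenomas were close to each other and above all others, and the difference from control of 20.1 points (edgeR adjusted p = 0.000293) passed the threshold under all 21 alternatives that could be run for this site. At 69804856 it was 26.9, 45.6 and 38.8% in Tet1 null, 14.5, 4.49 and 19.7% in double heterozygous, 4.04, 2.13 and 6.84% in Tdg heterozygous, and 18.8, 3.32 and 6.02% in control adenomas. The 3 Tet1 null values were the highest, and the difference from control was 27.7 points (edgeR adjusted p = 0.00197). Without control 2 or control 3 its edgeR adjusted p was 0.151 and 0.0672.

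In the stretch around 34 Mb, 3 sites were called. At 34621804 the level was 50.9, 26.2 and 46.7% in Tet1 null, 22, 27.3 and 21.4% in double heterozygous, 36.4, 4.59 and 19.4% in Tdg heterozygous, and 5.12, 20.7 and 5.47% in control adenomas. The Tet1 null values were above control values and overlapped those of the other mutants. The difference from control was 30.8 points (edgeR adjusted p = 0.00157), with an adjusted p of 0.0648 without control 1, 0.0851 without control 3 and 0.051 without Tet1 null 3. At 34777725 it was 35.6, 22.1 and 70.9% in Tet1 null, 27.8, 7.16 and 11% in double heterozygous, 37.5, 8.0 and 20.4% in Tdg heterozygous, and 12.1, 12.6 and 16.4% in control adenomas. Tet1 null 3 stood far above the other adenomas, and the difference of 29.2 points (edgeR adjusted p = 0.0468) had an adjusted p of 0.889 without it and of 0.0559 to 0.217 without any of 7 others. Its neighbour 360 bp away, 34778085, was not called and had 46.7, 79.9 and 82.4% in Tet1 null against 88.6, 82.2 and 79.2% in control adenomas, so that Tet1 null 1 was the low one there.

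Another site of this stretch, 34183538, had 31.1, 16.1 and 21.3% in Tet1 null, 15.5, 3.79 and 4.29% in double heterozygous, 8.06, 3.51 and 7.70% in Tdg heterozygous, and 7.19, 6.4 and 4.79% in control adenomas. The Tet1 null adenomas were the 3 highest, and the difference from control was 16.7 points (edgeR adjusted p = 0.0403), lost without any one of 7 adenomas (adjusted p 0.056 to 0.305). At 64560400 the level was 3.74, 20.3 and 11.7% in Tet1 null, 1.96, 2.12 and 0% in double heterozygous, 4.19, 2.05 and 3.33% in Tdg heterozygous, and 2.59, 2.20 and 1.60% in control adenomas. Tet1 null 1 lay within the Tdg heterozygous range, and the difference from control of 9.78 points (edgeR adjusted p = 0.0471) was lost without any one of 8 adenomas (adjusted p 0.0527 to 0.651). At 12385200 it was 0.85, 0.64 and 8.39% in Tet1 null, 1.01, 0.19 and 0.56% in double heterozygous, 0.06, 0.30 and 0.32% in Tdg heterozygous, and 0.27, 0.19 and 0.26% in control adenomas. Tet1 null 3 was the high one, and the difference from control of 3.05 points (edgeR adjusted p = 0.03) had an adjusted p of 0.891 without it and of 0.105 to 0.201 without any one control adenoma.

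Along the chromosome, in 13 windows of 10 Mb, the Tet1 null mean was above the control mean in each window, by 0.413 to 8.12 points. The called sites fell in 6 of these windows, 3 each at 10 to 20, 30 to 40, 60 to 70 and 100 to 110 Mb and 2 each at 70 to 80 and 80 to 90 Mb, and none in the other 7. The largest window difference was at 80 to 90 Mb, where the 16 members averaged 42.9, 42.7 and 41.4% in Tet1 null, 37, 35.1 and 37.1% in double heterozygous, 33.4, 37.9 and 37.6% in Tdg heterozygous, and 34.1, 35 and 33.6% in control adenomas. All Tet1 null adenomas were above the other 9. Much of it lay in a pair of sites that did not pass the test against control. At 80168559 the level was 54.4, 37.6 and 38.9% in Tet1 null, 19.6, 24.4 and 19.3% in double heterozygous, 17.6, 46.7 and 14.7% in Tdg heterozygous, and 20, 20.5 and 17.4% in control adenomas (edgeR adjusted p = 0.16). At 80169014 it was 74.5, 44.6 and 52% in Tet1 null, 16.5, 35.4 and 25.6% in double heterozygous, 13.6, 27.5 and 10.3% in Tdg heterozygous, and 36.6, 28.4 and 23.5% in control adenomas (edgeR adjusted p = 0.159). Tet1 null values were above control values at both sites.

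Tet1 null adenomas were also set against the other mutants. These comparisons share the Tet1 null adenomas with the one against control, so their calls are not independent of it. Against Tdg heterozygous adenomas, 15 of the 588 sites were higher in Tet1 null and 1 was lower (edgeR adjusted p under 0.05), where 1.69% of all sites tested were higher and 0.00576% lower. Of the 15 sites, 13 were among the 16 higher than control. The other 2 were 80169014, where Tet1 null was 39.9 points above Tdg heterozygous (edgeR adjusted p = 0.000921), and 33413472. At 33413472 the level was 25, 16.9 and 10.6% in Tet1 null, 3.99, 4.98 and 10.5% in double heterozygous, 2.02, 2.05 and 2.13% in Tdg heterozygous, and 9.13, 4.23 and 4.31% in control adenomas. The Tdg heterozygous adenomas were the 3 lowest and the Tet1 null adenomas the 3 highest, 15.4 points apart (edgeR adjusted p = 0.000144). The largest difference outside the run was at 75.8561 Mb, with 48.6 points, followed by 14766131 with 43.6 points (edgeR adjusted p = 5.95e-05).

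The site that was lower in Tet1 null, 57020646, had 58.1, 94.2 and 80.7% in Tet1 null, 92.6, 95.9 and 93.4% in double heterozygous, 94.4, 97.2 and 96.9% in Tdg heterozygous, and 96.2, 89.9 and 91.4% in control adenomas. Tet1 null 1 was the low one, and Tet1 null 2 lay within the control range. The difference from Tdg heterozygous was -18.5 points (edgeR adjusted p = 0.0332), with an adjusted p of 0.602 without Tet1 null 1 and of 0.055 to 0.22 without Tet1 null 3 or any one Tdg heterozygous adenoma.

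Against double heterozygous adenomas 1 and 2, 10 sites were higher in Tet1 null and 0 lower (edgeR adjusted p under 0.05), 1.70% of the 588 sites, where 0.582% of all sites were higher and 0.00576% lower. By this share chromosome 14 stood first of the 19 autosomes, ahead of chromosome 16 (1.05%). Counted by run, 6 of its 309 tested runs (1.94%) held such a site, close to chromosome 6 with 1.86%. The 10 sites include the one at 75.8561 Mb and sites of the run, singled out for their high Tet1 null levels, so this rank rests in part on chosen sites. With limma on log2 count ratios the shares called were 0.34% on chromosome 14 and 0.221% on the other autosomes. With 20 reads of each state they were 0 and 0.192%. Of the 10 sites, 9 were among the 16 higher than control and 64560566 was the other one. The largest differences were 44.1 points at 75.8561 Mb, 39.5 points at the first site of the run and 35.2 points at 75856491 (edgeR adjusted p = 0.00416 at the last). The count was 3 without Tet1 null 1, 5 without Tet1 null 2 and 5 without Tet1 null 3. The calls depended on double heterozygous 2. Without it a single adenoma of that genotype is left, assumed to vary like the other genotypes, so only effect sizes are given. The log2 odds ratio without it was 3.0 at 75.8561 Mb (2.87 with both adenomas). It was 2.35 at the first site of the run (3.28 with both) and 2.65 at 75856491 (3.21 with both). At each other called site it was also lower without that adenoma, down to 1.71 at 69804856 (2.64 with both).

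Double heterozygous adenomas 1 and 2 did not differ from control adenomas at any chromosome 14 site past the threshold. edgeR called 0 of the 588 sites and limma on log2 count ratios 0, as over all autosomes (0.0% with edgeR). At an unadjusted p under 0.05 edgeR gave 15 sites (2.55%, against 3.74% of all sites) and limma 12. The smallest p was at 34134046, with 8.17, 15.9 and 13.5% in double heterozygous and 1.27, 2.96 and 2.51% in control adenomas (edgeR adjusted p = 0.899). At 56337858 the level was 89.0, 88.2 and 77.1% in double heterozygous and 63.2, 79.5 and 59.5% in control adenomas (edgeR adjusted p = 0.899). Lower values were at 77557636, with 7.74, 3.52 and 18.7% against 47.1, 9.0 and 7.11% in control adenomas, and at 55734679, with 0, 1.33 and 0% against 6.0, 1.88 and 0.57% in control adenomas, and double heterozygous and control adenomas overlapped at both.

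Tdg heterozygous adenomas likewise had 0 of 588 sites past the threshold against control with edgeR and 0 with limma on log2 count ratios (0.0% of all autosomal sites with edgeR). Without adjustment, 17 sites had a p under 0.05 with edgeR (2.89%, against 2.99% of all sites), 7 higher and 10 lower, and 18 with limma. At 24822701 the level was 0.70, 0.59 and 0.82% in Tdg heterozygous and 9.82, 7.15 and 1.26% in control adenomas, 5.37 points apart (edgeR adjusted p = 0.121). All 3 Tdg heterozygous values were below the control values, and this site passed in 3 of 22 alternatives, those without control 3 (adjusted p 0.0117), double heterozygous 1 (0.0459) or double heterozygous 2 (0.0454). At 105076306 it was 16.8, 12.7 and 22.9% in Tdg heterozygous and 56.2, 47.5 and 35.9% in control adenomas (edgeR adjusted p = 0.781), again without overlap, while Tet1 null adenomas had 39.9, 41.7 and 49%. The highest-ranked site in the other direction was 81871645, with 79.4, 84.8 and 85.2% in Tdg heterozygous and 51.7, 71.5 and 57.8% in control adenomas (edgeR adjusted p = 0.982). Next was 12386450, with 0.16, 0.07 and 0.50% in Tdg heterozygous and 0% in all 3 control adenomas (edgeR adjusted p = 0.982).

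Between double heterozygous and Tdg heterozygous adenomas, which share the Tdg allele and differ in 1 copy of Tet1, edgeR called 0 of 588 sites (0.0% of all sites), as did limma on log2 count ratios. An unadjusted p under 0.05 was reached at 15 sites with edgeR (2.55%, against 2.63% of all sites) and at 19 with limma. At 66943762 the level was 2.87, 4.5 and 0% in double heterozygous and 0.43, 0.34 and 0.45% in Tdg heterozygous adenomas. At 64560566 it was 2.42, 0.63 and 0% in double heterozygous and 14.4, 2.75 and 8.04% in Tdg heterozygous adenomas, and Tet1 null adenomas had 6.65, 14.2 and 14.3%. The sites 24822701 and 84845763 completed the 4 named here, the 2 with the smallest p in each direction. The levels were 0.51, 13.2 and 0% against 0.70, 0.59 and 0.82% at the first and 0.16, 0.56 and 0% against 5.38, 2.96 and 0% at the second. All 4 had an edgeR adjusted p of 1.0. Without double heterozygous 1 that of 24822701 was 0.00516, but this sets the single value of 13.2% in double heterozygous 2 against 3 Tdg heterozygous adenomas, with the spread taken from the other genotypes.

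At the 16 sites higher in Tet1 null than in control, the values of double heterozygous 1 and 2 were both within or below the control range at 8 sites, and all 3 Tdg heterozygous values at 8 sites. The double heterozygous mean was above the control mean at 14 of the 16 sites and the Tdg heterozygous mean at 10. Since these sites were picked for their difference from the same control adenomas, these counts are a description of the values only.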

How the data were processed

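Methylation at CCCGGG sites was analysed in 12 colonic adenomas, grouped by the genotype in the labels. SmaI digestion came before XmaI digestion, per the labels' protocols. The submitters' processing notes name Trim Galore for trimming, Bowtie2 for alignment and mm9 as the build. Versions were not given in the sources used. A rat build stands in the text of the labels' protocol, while the file headers also name mm9. Per the file headers, each site has deposited counts of reads in the methylated and in the unmethylated state. It also has a raw percent and a percent that the authors adjusted by spiked standards, which themselves read 0.08 to 1.84% and 98.83 to 99.22%. No molecular identifiers are named, so intervals cover counting error only.

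Autosomal sites with 50 or more reads in 11 adenomas and reads of both states (17364, of which 588 on chromosome 14) entered the test, run with edgeR 4.0.16 (R 4.3.3). The quasi-likelihood test used both counts, 1 depth coefficient per adenoma, methylated coefficients per genotype and a dispersion without a trend (common value 0.111). Double heterozygous 3 was left out of the fit. All tests were two-sided, and p-values were adjusted over the 17364 sites by Benjamini-Hochberg with a threshold of 0.05. The scripts were tested on simulated data. Means are given ± SD over adenomas, and differences are percentage points of the adjusted percent.

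The members, the run (positions 109311177 to 109312055), position 75856108 and the windows, classes and rules were chosen with earlier results of these data known. Sites named are, against control, up to 10 in each direction with the largest difference among called sites without overlap, in other comparisons up to 3, and where none passed the 2 with the smallest p in each direction, with the run and its neighbours. The other called sites, and those at 34778085, 80168559, 80169014, 33413472 and 64560566, were named after their values were seen. Alternatives were other depth minimums (20, 100 and 300 reads), all 12 adenomas, limma 3.58.1, the compared genotypes alone, a replicate block, sex, a minimum of 20 reads of each state, and leaving out each adenoma. Limma used log2 ratios of counts with 2 reads added, the logit of the percent level, or centred log2 ratios. Figures were drawn with matplotlib 3.10.9. No mm9 genome or annotation was used here, so sites are given by mm9 position, with no gene assigned and no sequence.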

Additional observations from a re-analysis of the deposited data

Results flagged for a closer look

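The effect of genotype differed between mutants at some chromosome 14 sites, by a direct test between them. At 16 sites the Tet1 null adenomas differed from the Tdg heterozygous adenomas (15 higher and 1 lower, edgeR adjusted p under 0.05). The difference of each from the shared control adenomas was thus not the same there. The 15 higher sites were 2.55% of the 588, where 1.69% of all sites tested were higher. At 10 sites (1.70%) the Tet1 null adenomas were higher than double heterozygous adenomas 1 and 2 by the same test, where 0.582% of all sites were higher. Of the 16 and 10 sites, 9 were called in both comparisons and against control as well. With limma on log2 count ratios the counts were 11 and 2, and with 20 reads of each state 9 and 0. The comparisons share the Tet1 null adenomas, and the cause of the differences was not tested.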

How the results depend on the processing

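The number of sites higher in Tet1 null than in control, 16 as reported, was 15 with 20 reads as the depth minimum, 17 with 100, 20 with all 12 adenomas, 15 with all 12 at 100 reads, 20 with only these genotypes, 12 with sex as a covariate and 13 with the run left out, the last chosen after seeing the data. The count was 10 at 300 reads, 6 with limma on log2 ratios, 3 with limma on logits, 4 with centred limma and 5 with 20 reads of each state. It ranged from 8 (without control 2 or 3) to 20 without 1 adenoma. The number that differed between Tet1 null and Tdg heterozygous adenomas, 16 as reported, was 9 at 300 reads, 3 with limma on logits, 6 with centred limma and 9 with 20 reads of each state, and 12 to 18 without 1 adenoma. Against double heterozygous adenomas the number, 10 as reported, was 4 at 300 reads, 2 with limma on log2 ratios, 1 on logits, 2 with centred limma, 5 with only these genotypes, 6 with sex and 0 with 20 reads of each state, and 0 to 10 without 1 adenoma, where leaving out double heterozygous 1 or 2 leaves 1 adenoma of that genotype, assumed to vary like the others. Higher depth minimums and the rule on both states leave fewer sites tested. Under the rule on both states, though, 29 checks of single named sites were still fitted and kept direction but not the threshold. The cause of the changes was not tested for any setting. Between Tdg heterozygous and control adenomas the count was 0 to 1 without 1 adenoma, as it was between double heterozygous and Tdg heterozygous adenomas. Reads summed over sites gave -0.0205 points for the mean level of Tdg heterozygous minus control adenomas, against 0.545. At 24822701 the log2 odds ratio of double over Tdg heterozygous was 2.46, with -0.35 to 4.35 without 1 adenoma. The run's Tet1 null minus control difference was 14.3 to 42.1 points without 1 adenoma, and other settings kept it within the SD of the Tet1 null adenomas.

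The replicate numbers were not shown to pair adenomas: correlations of deviations between same-numbered adenomas were -0.276 to 0.234, 4 of 15 over 0.1, and 6 of 11 adenomas correlated best with their own number. With a replicate block, 11 sites were called for Tet1 null against control, 13 against Tdg heterozygous, 5 against double heterozygous and 0 in the other comparisons. Depth limited double heterozygous 3 most, where the 95% interval at the 16 sites was up to 26.6 points wide. Of the checks of single named sites in the Tet1 null comparisons, 671 kept direction and side of the threshold and 264 kept direction only.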

Other observations

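Beyond the run, its neighbour and 14766131, the 5 chromosome 14 sites with the largest SD within a genotype were 118184935, 33737071, 17896279, 31962161 and 32099137. At 118184935 the level was 43.3, 93.1 and 88.4% in Tdg heterozygous adenomas, while the Tet1 null adenomas had 90.2, 88.5 and 93.3%, the double heterozygous 94.8, 91.8 and 81.1% and the control adenomas 93.2, 84.1 and 94.2%. Only Tdg heterozygous 1 was low among the 12. At 33737071, Tdg heterozygous adenomas had 81.4, 29.2 and 63.5% and control adenomas 85.6, 53.1 and 81.1%, so that the lowest values were in adenoma 2 of both genotypes. At 17896279, Tdg heterozygous adenomas had 50.4, 18.9 and 70.5% and control adenomas 27.8, 30.4 and 56.5%, and adenoma 3 was the highest of both genotypes. At 31962161, double heterozygous adenomas had 68.3, 31.9 and 53.5% and control adenomas 20.1, 49.1 and 56.1%. At 32099137 the level was 60.9% in Tet1 null 2 and 52.2% in double heterozygous 1, and between 11.3 and 36.5% in the other 10 adenomas. Since these sites were picked for their SD, they are given as values only.

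The spread from adenoma to adenoma was widest at the 127 sites of 20 to 80% in control, with a median SD of 8.55 points in Tet1 null, 8.3 in double heterozygous (n = 2), 7.28 in Tdg heterozygous and 6.87 in control adenomas. Over the 56 sites of 5 to 20% it was 5.07 points in Tet1 null, 6.84 in double heterozygous, 5.09 in Tdg heterozygous and 2.78 in control adenomas. On the other autosomes the medians of the 5 to 20% class were 4.93, 8.12, 4.69 and 2.75 points. Since control levels chose the class, a smaller spread among control adenomas is in part built in.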
